A study of Mus musculus with 6 samples.

Results

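The genes described here make, sense, take up, store and export cholesterol in mouse liver. They were chosen by name from the sterol pathways of the liver: 18 enzymes of synthesis, 4 genes that control the SREBP transcription factors, 3 of uptake, 3 of transport inside the cell, 3 of esterification and 4 of efflux, 35 in all. Of these, 34 were found among the 25690 genes of the expression table through their Ensembl identifiers, and Mvd was not analysed here. RNA was sequenced from hepatic tissue of 3 wild type control libraries and 3 libraries from mice with a liver knockout of FTO, which takes methyl groups off N6-methyladenosine in RNA. The design sets these genotypes side by side to show what loss of hepatic FTO does to gene expression. Strain, age, sex, diet, the allele and the driver of the deletion are not given in the sources used here, and neither is whether each library is a separate animal. The p-values below therefore reflect only how far these 6 libraries vary, which may be technical.

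Liver cells build cholesterol from acetyl-CoA by way of mevalonate, farnesyl diphosphate, squalene and lanosterol. When sterols in the endoplasmic reticulum run low, the escort protein SCAP carries the membrane-bound factor SREBP2 to the Golgi, where proteases release the part that switches on the genes of synthesis and uptake. When sterols are plentiful, INSIG1 and INSIG2 hold SCAP in the endoplasmic reticulum. The liver disposes of cholesterol as bile acids, as esters in lipoproteins, and as free cholesterol moved into bile by the paired transporter ABCG5 and ABCG8.

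Levels are FPKM, fragments scaled by transcript length and sequencing depth, so they can be compared between genes. Library depth was inferred as 34140000 to 42530000 fragments, from small FPKM values read as single fragments. Only values that put the depth within a range set beforehand were kept, so these depths are rough and partly fixed by that range. At the lowest of them, a transcript of 2 kilobases at 1 FPKM would correspond to 68 fragments. Values are given throughout for replicates 1, 2 and 3 in that order. Fto itself was measured at 6.67, 6.02 and 6.40 FPKM for wild type and at 1.79, 3.83 and 2.66 FPKM for knockout, a fall in all 3 libraries (limma, adjusted p 0.0386). Alb, the defining hepatocyte marker, is at 0 in 2 of the 6 libraries, wild type replicate 1 and knockout replicate 3, which can be a failed estimate. The other 9 hepatocyte markers summed to 44101 to 63853 FPKM in wild type and 50863 to 53487 FPKM in knockout, a sum to which Apoa2 gave the most. Of these 9 markers, 6 were higher in knockout at an unadjusted p under 0.05, with all knockout libraries above wild type, and 0 were lower, and 1 of the 6, Ahsg, was called higher by limma. The 6 were Ahsg, Fgb, Serpina3k, Cps1, Hnf4a and Trf, with log2 changes from 0.31 to 0.66. Apoa2 and Tat had lower means in knockout. Of all tested genes, 8.65% were higher at that p, 1.11% were called higher and 11.5% had all knockout libraries above wild type. Across 784 abundant genes, the median absolute log2 difference between wild type replicates 1 and 2 was 0.14, but replicate 3 differed from them by 0.42 and 0.29, which set it apart in its group. All 12 Kupffer cell and macrophage markers had higher means in knockout, 5 at an unadjusted p under 0.05 and 0 at an adjusted p under 0.05. For comparison, 49.7% of all tested genes had a positive log2 change, 8.65% at that unadjusted p and 1.11% at that adjusted p. Their summed level was 74.4 to 255 FPKM in wild type and 212 to 373 FPKM in knockout, and the part of either marker list in the results was not tested. In whole tissue, fewer cells of a type and less RNA per cell cannot be told apart.

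Promoter letters are shown first, because SREBP2 acts through short elements close to the starts of these genes. RefSeq windows (GRCm38.p6, the assembly of mm10) were found for 27 of the 35 genes, 34 windows in all, and the 250 bases before each start were searched on both strands. There was no window for Fdps, Fdft1, Sqle, Scarb1, Stard4, Npc1, Soat2 and Abcg1. The core of the sterol regulatory element, searched as TCACCCCAC, was found in 1 of the 34 windows (2.94%), that of Hmgcs1, against 0.496% of all 32851 windows. With 1 mismatch allowed it was found in 6 of the 34 (17.6%), those of Hmgcs1, Srebf2, Nsdhl, Acat2, Hsd17b7 and Mylip, against 8.47% of all windows. The first 3 of these are shown with the match in capitals, each ending before the first annotated exon. The match begins 137 bases before the start in Hmgcs1 (chr13:119690101-119690350, plus strand), 162 bases before it in Srebf2 (chr15:82147019-82147180, plus strand) and 205 bases before it in Nsdhl (chrX:72918271-72918520, plus strand). These distances run to the RefSeq start. In Srebf2 that start lies inside the annotated gene, which begins at 82147181, so the letters shown stop short of it.
Hmgcs1: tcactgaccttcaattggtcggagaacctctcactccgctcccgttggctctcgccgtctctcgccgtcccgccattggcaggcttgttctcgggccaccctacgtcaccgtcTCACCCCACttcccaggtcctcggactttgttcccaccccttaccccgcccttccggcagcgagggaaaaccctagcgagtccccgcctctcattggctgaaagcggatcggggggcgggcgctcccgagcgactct
Srebf2: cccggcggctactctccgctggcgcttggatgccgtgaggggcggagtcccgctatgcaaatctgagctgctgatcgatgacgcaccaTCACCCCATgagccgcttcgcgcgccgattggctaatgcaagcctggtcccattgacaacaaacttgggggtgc
Nsdhl: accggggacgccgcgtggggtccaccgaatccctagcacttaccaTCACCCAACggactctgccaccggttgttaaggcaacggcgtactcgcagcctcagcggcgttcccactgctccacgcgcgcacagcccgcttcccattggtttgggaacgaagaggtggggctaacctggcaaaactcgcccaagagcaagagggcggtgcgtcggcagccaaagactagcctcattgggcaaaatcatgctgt

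The CCAAT box, which binds the factor NF-Y that acts together with SREBP on sterol genes, was far more common. It was found in 14 of 18 windows of synthesis genes (77.8%) and in 22 of the 34 windows overall (64.7%), against 33.8% of all windows. The E-box CACGTG was found in 6 of the 34 windows (17.6%) against 6.02% of all. Insig2, the gene called lower below, had 3 start windows, and the one farthest upstream (chr1:121332590-121332839, minus strand) is shown with its 3 CCAAT boxes, on either strand, in capitals. The other start windows of Insig2 held no CCAAT box.
Insig2: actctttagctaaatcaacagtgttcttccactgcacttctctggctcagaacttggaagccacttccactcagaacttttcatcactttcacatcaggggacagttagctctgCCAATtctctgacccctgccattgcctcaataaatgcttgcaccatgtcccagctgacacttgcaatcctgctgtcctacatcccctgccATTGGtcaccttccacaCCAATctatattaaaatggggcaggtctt
Abcg5 and Abcg8 are transcribed in opposite directions and are compared below. Shown are the 109 bases between the start of Abcg5, a gene on the minus strand, and the next annotated exon of Abcg8 (chr17:84683012-84683120, plus strand). The annotation of Abcg8 begins earlier, at 84676302, inside Abcg5, so this stretch does not separate the whole genes. Capitals mark the 2 matches to AGATAA on the opposite strand, a motif bound by GATA factors. It was picked after these letters had been read and is found in 9.99% of all windows.
Abcg5 to Abcg8: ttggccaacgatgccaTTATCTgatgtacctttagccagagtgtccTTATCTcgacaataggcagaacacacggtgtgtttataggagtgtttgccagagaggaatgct
All motifs were picked with earlier results known. These matches describe letters and were not tested as binding sites.

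Sqle, which encodes squalene epoxidase, an oxygen-dependent enzyme that controls the flow from squalene to lanosterol, rose 3.09-fold in knockout, and Insig2, a brake on SREBP processing, fell 2.0-fold. A gene was called at an adjusted p under 0.05 in limma, with Benjamini-Hochberg adjustment over the 10405 genes whose mean reached 1 FPKM. Of the 34 genes, 32 were tested, and Soat1 and Abcg1 lay below that mean. Of these 32, 1 was called higher, 1 lower and 30 were not called, beside 2.76% of all tested genes called in either direction (1.11% higher, 1.65% lower). So few calls cannot show whether the share among these genes differs from that of the whole table. An unadjusted p under 0.05 was reached by 9 of 32 (28.1%), 6 higher and 3 lower, beside 18.7% of all tested genes (8.65% higher, 10.0% lower). The groups did not overlap for 10 of 32 (31.2%), 6 with all knockout libraries above and 4 with all below, beside 24.5% of all tested genes (11.5% above, 13.0% below). Their median log2 change, on the log2(FPKM + 1) scale, was 0.17, and that of all tested genes was -0.00.

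**Figure D1:**
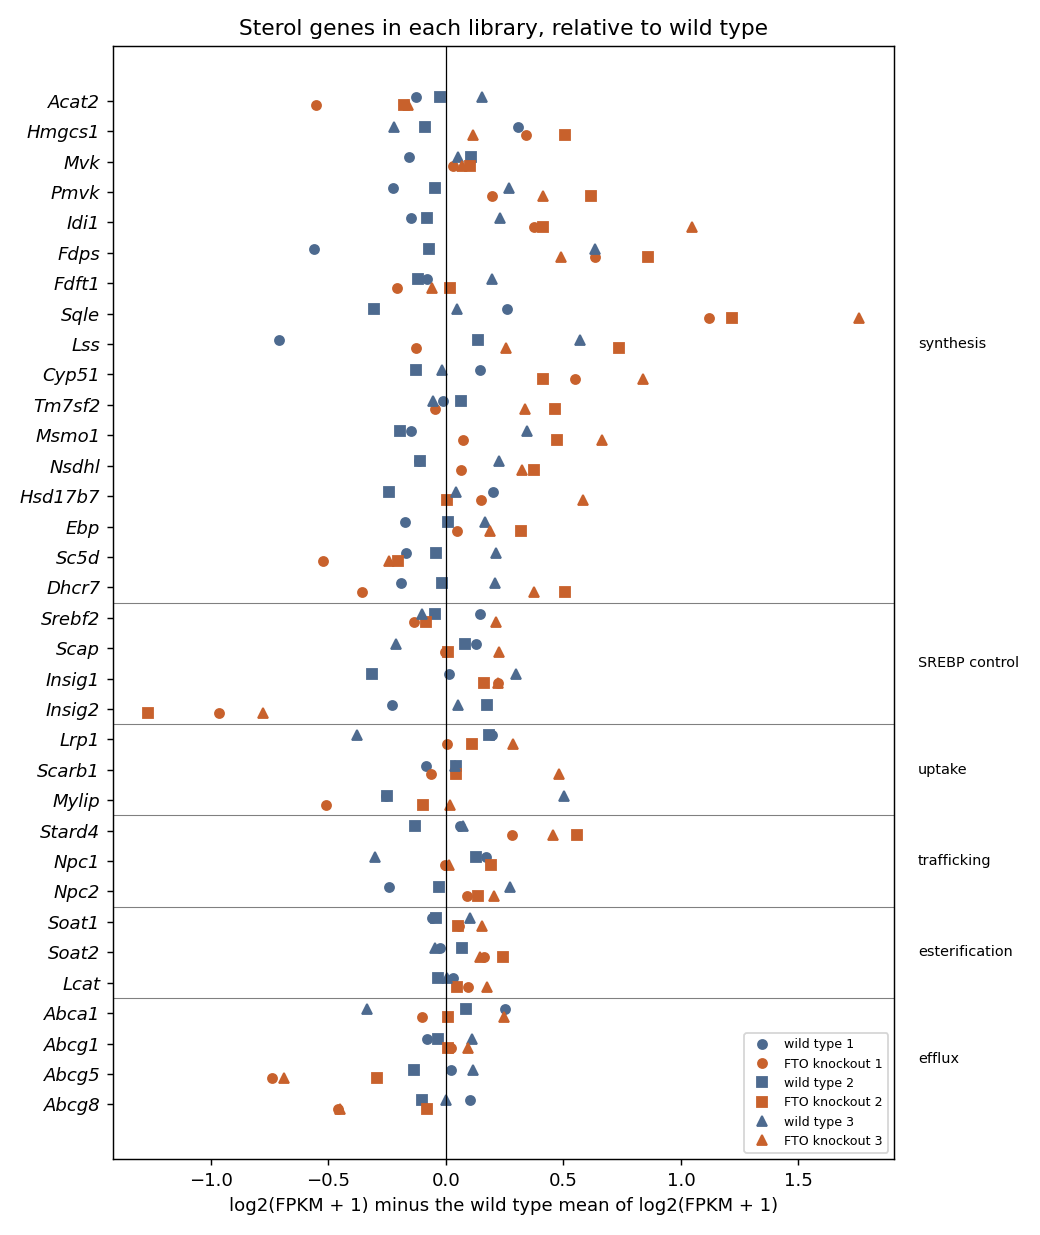
Level of each of the 34 genes in each library, as log2(FPKM + 1) minus the wild type mean of log2(FPKM + 1) (horizontal axis), grouped by role; marker shapes give the replicate. Sqle lies to the right of wild type and Insig2 to the left in all 3 knockout libraries, while most other genes overlap.

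Among the enzymes of synthesis, 14 of 17 had a positive log2 change, with a median of 0.25 and a range from -0.32 to 1.36. For comparison, 49.7% of all tested genes had a positive change. Sqle alone was called, 5 had an unadjusted p under 0.05 and a higher mean, and 0 had one with a lower mean. Of all tested genes, 8.65% and 10.0% did so. All knockout libraries lay above all wild type libraries for Idi1, Sqle and Cyp51, and below them for Acat2 and Sc5d. Groups thus did not overlap for 29.4% of the enzymes (17.6% above, 11.8% below), near the 24.5% of all tested genes (11.5% above, 13.0% below). The counts of enzymes varied with the libraries used. Leaving out each library in turn gave 12 to 15 positive changes. It gave 2 to 7 enzymes higher at an unadjusted p under 0.05, and 0 to 2 called higher. The number higher at that p was 2 without wild type replicate 2, 3 without wild type replicate 1 or knockout replicates 2 or 3, and 7 without knockout replicate 1 or wild type replicate 3. Without wild type replicate 1, 1 enzyme was lower at that p. Over all tested genes in the same settings, 4.96% to 12.9% were higher at that p and 43 to 312 genes were called higher. Both were lowest without knockout replicate 3 and highest without wild type replicate 3. No enzyme was called without wild type replicate 2 or knockout replicate 3, and 2 were called without wild type replicate 3, the library that stood apart. The shift was uneven across libraries: relative to the wild type mean, the median enzyme stood at 104%, 135% and 127% in the knockout libraries and at 89.3%, 93.7% and 115% in the wild type libraries. Knockout replicate 1 was the lowest of its group for 13 of 17 enzymes, and wild type replicate 3 was the highest of its group for 11. By the median enzyme, that wild type library (115%) stood above that knockout library (104%), against the direction of the group means.

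**Figure D2:**
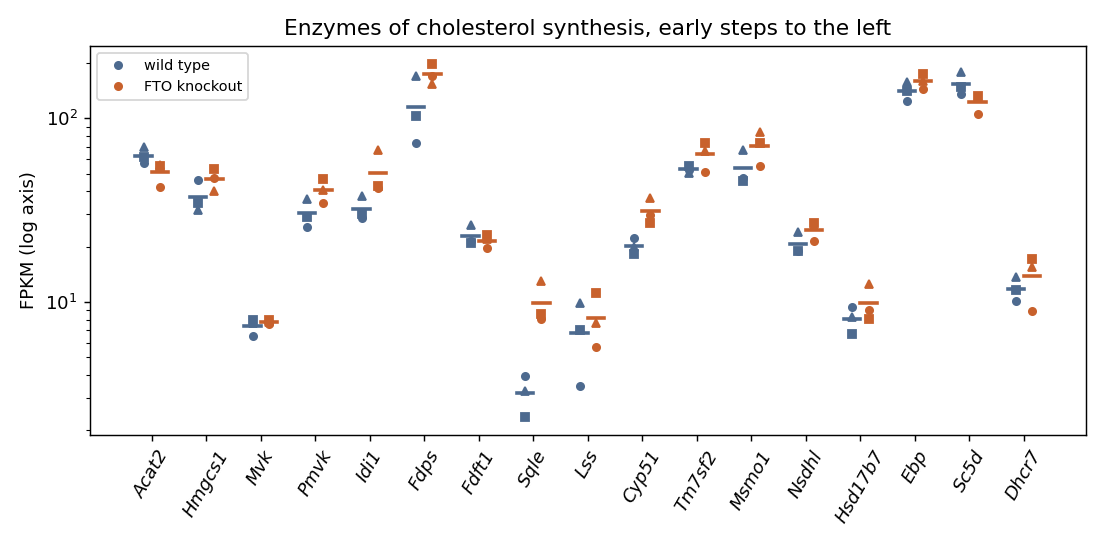
FPKM (log axis) of the 17 measured enzymes of cholesterol synthesis in approximate pathway order, with a point per library and a bar at each group mean. Sqle has the lowest wild type level of the row, 3.20 FPKM on average, and the widest gap between group means on the log axis, while Ebp, Sc5d and Fdps lie near or above 100 FPKM.

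The first enzymes lead from acetyl-CoA to mevalonate and on to isoprenoid units. Acat2, the cytosolic thiolase that joins 2 acetyl-CoA molecules, stood at 57.1, 61.3 and 69.6 FPKM in wild type and at 42.3, 55.0 and 55.8 FPKM in knockout (log2 change -0.30, SE 0.15, adjusted p 0.336 in limma). Its groups did not overlap. Its value is uncertain to the extent that reads are shared with the related gene Acat3, which was not tested. Hmgcs1, the synthase that makes HMG-CoA, stood at 46.1, 34.8 and 31.6 FPKM in wild type and at 47.2, 53.0 and 40.3 FPKM in knockout, with overlapping groups and an adjusted p of 0.370 in limma. The mevalonate kinase gene Mvk had the smallest change of the 17 enzymes, with a mean of 7.38 ± 0.789 FPKM for wild type against 7.75 ± 0.212 FPKM for knockout (SD, n = 3 each).

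Pmvk and Idi1 act next, Pmvk as the second kinase of mevalonate and Idi1 as the isomerase that makes dimethylallyl diphosphate. Idi1 stood at 28.8, 30.2 and 37.7 FPKM in wild type and at 41.8, 42.9 and 67.0 FPKM in knockout. All 3 knockout libraries were above wild type, with replicate 3 far above the others, and the log2 change in limma was 0.61 (SE 0.20, adjusted p 0.165). Pmvk stood at 25.7, 29.2 and 36.6 FPKM in wild type and at 34.7, 46.9 and 40.5 FPKM in knockout (log2 change 0.41, SE 0.17, adjusted p 0.244). Here wild type replicate 3 lay above knockout replicate 1, so the groups overlapped.

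Fdps, which makes farnesyl diphosphate, the branch point toward sterols and prenylated proteins, had the highest mean level of the enzymes up to squalene. Its level was 73.6, 103.7 and 170.2 FPKM in wild type and 169.9, 198.9 and 153.6 FPKM in knockout. Wild type replicate 3 lay among the knockout libraries, and the log2 change of 0.66 (SE 0.28) had an adjusted p of 0.263 in limma. Without that library the change was 0.98 with an adjusted p of 0.0274, so the call depended on it. Without wild type replicate 1, the lowest library, the change was 0.38. In the annotation 26.7% of the exon bases of Fdps are shared with Gm43738 on the same strand. Fdft1, the squalene synthase that follows it, stood nearly level, with a mean of 22.9 ± 2.94 FPKM for wild type against 21.6 ± 1.77 FPKM for knockout (SD, n = 3 each). Its log2 change was -0.08, with a 95% interval from -0.38 to 0.22. In the annotation 18.3% of the exon bases of Fdft1 are shared with Ctsb on the opposite strand.

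Sqle (ENSMUSG00000022351, chromosome 15, 59315077 to 59331192, mm10) stood at 3.97, 2.36 and 3.29 FPKM in wild type and at 8.02, 8.64 and 13.0 FPKM in knockout. The lowest knockout library was above the highest wild type library. The means were 3.20 ± 0.808 and 9.90 ± 2.73 FPKM (SD, n = 3 each), and limma gave a log2 change of 1.36 (SE 0.21, adjusted p 0.0173). The call was lost without wild type replicate 2 (log2 change 1.21, adjusted p 0.0525), without knockout replicate 3 (1.17, 0.0520) and when low genes were kept in (1.36, 0.0618). Relative to Fdft1, whose product is the substrate of squalene epoxidase, Sqle stood at 0.184, 0.112 and 0.125 in wild type and at 0.409, 0.374 and 0.595 in knockout. This ratio of FPKM within a library did not overlap between the groups. That follows largely from the change of Sqle itself, so it is not a separate result. Relative to Lss, the next enzyme, Sqle stood at 1.15, 0.336 and 0.335 in wild type and at 1.42, 0.776 and 1.69 in knockout. That ratio overlapped, since wild type replicate 1 lay above knockout replicate 2.

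After squalene, lanosterol is formed and then trimmed to cholesterol. Lss, the lanosterol synthase, was among the most variable enzymes, at 3.46, 7.02 and 9.82 FPKM in wild type and 5.67, 11.1 and 7.70 FPKM in knockout, so that the spread within a group exceeded the difference. Cyp51, the lanosterol demethylase, stood at 22.3, 18.3 and 19.8 FPKM in wild type and at 29.9, 27.1 and 36.6 FPKM in knockout. All 3 knockout libraries were above wild type, with a log2 change of 0.60 (SE 0.14, adjusted p 0.0748 in limma), which missed the threshold. With the settings tried, its log2 change ran from 0.48 without knockout replicate 3 to 0.69 without knockout replicate 2, and its adjusted p stayed above 0.05.

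The remaining enzymes had log2 changes smaller in size than that of Cyp51. Tm7sf2, a sterol reductase, Msmo1, a methyl sterol monooxygenase, and Nsdhl and Hsd17b7, which work with it in removing methyl groups, had log2 changes of 0.25, 0.40, 0.25 and 0.25. For Msmo1 the level was 47.3, 45.8 and 66.9 FPKM in wild type and 55.4, 73.2 and 83.9 FPKM in knockout, with wild type replicate 3 above knockout replicate 1. Ebp, the sterol isomerase, had the highest mean level of the 17 enzymes over the 6 libraries, at 124, 141 and 158 FPKM in wild type and 145, 175 and 160 FPKM in knockout. Sc5d, a late desaturase, went the other way, from 136, 149 and 178 FPKM in wild type to 106, 133 and 129 FPKM in knockout. The groups of Sc5d did not overlap, though its log2 change of -0.32 (SE 0.15) had an adjusted p of 0.307 in limma. Dhcr7, which completes a late reduction, ranged from 8.95 to 17.1 FPKM in knockout and from 10.2 to 13.7 FPKM in wild type. The 7 enzymes up to squalene had a median log2 change of 0.32 and the 10 from squalene on one of 0.25, so both stretches had like medians.

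**Figure D3:**
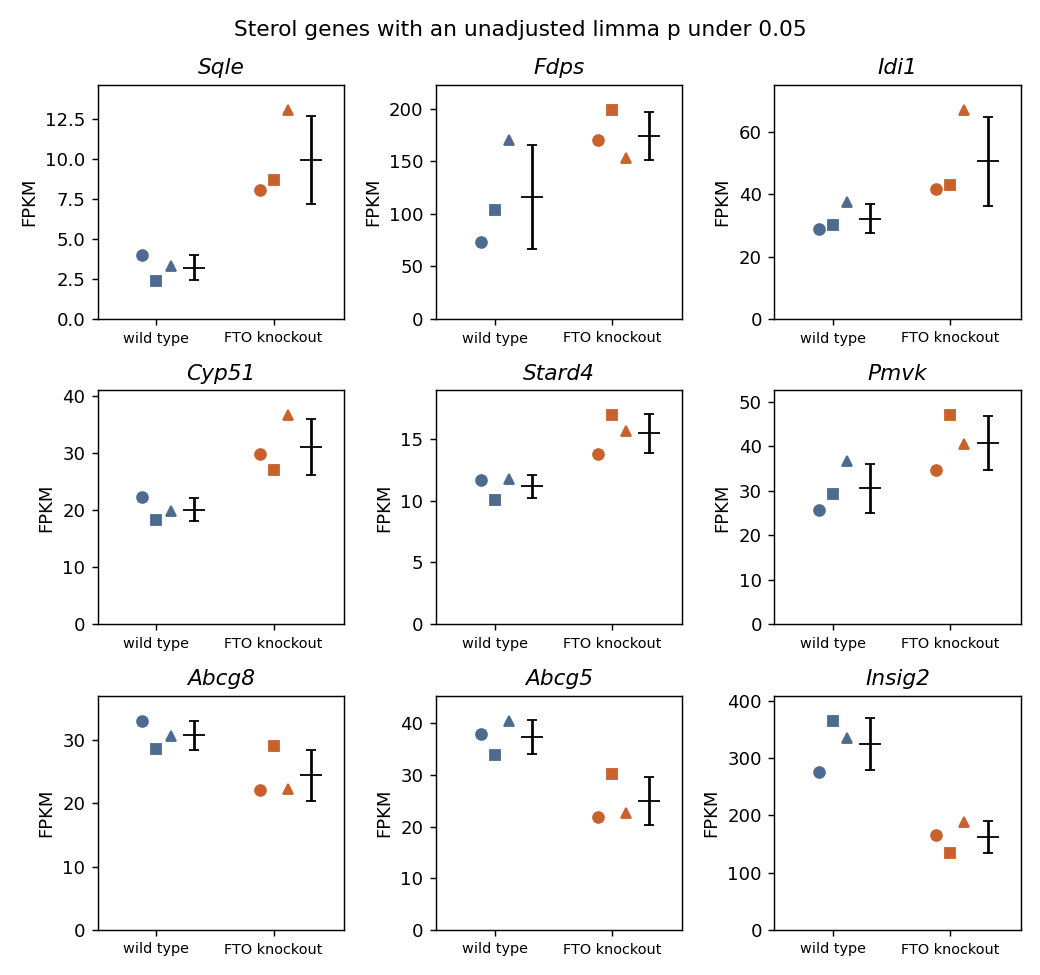
FPKM of the 9 genes with an unadjusted limma p under 0.05, a point per library (circle, square and triangle for replicates 1, 2 and 3) with the mean ± SD beside them. Groups do not overlap for Sqle, Idi1, Cyp51, Stard4, Abcg5 and Insig2, and overlap for Fdps, Pmvk and Abcg8.

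Of the 4 genes of SREBP control, only Insig2 was called by limma, and it was the only one at an unadjusted p under 0.05. Insig2 (ENSMUSG00000003721, chromosome 1, 121304353 to 121332589, mm10) stood at 276, 365 and 335 FPKM in wild type and at 165, 134 and 188 FPKM in knockout. Every knockout library was below every wild type library. The means were 325 ± 45.5 and 162 ± 27.1 FPKM (SD, n = 3 each), and limma gave a log2 change of -1.0 (SE 0.17, adjusted p 0.0265). The call was lost without wild type replicate 2 (adjusted p 0.113), without knockout replicates 1, 2 or 3 (0.0909, 0.0672 and 0.0662) and when low genes were kept in (0.0638), while the log2 change stayed between -1.12 and -0.87. The value covers the whole gene, so transcripts from its separate starts were not resolved.

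Insig1, the partner that is itself switched on by SREBP, was not called. Its level was 47.5, 37.7 and 58.1 FPKM in wild type and 55.0, 52.8 and 55.0 FPKM in knockout, with the knockout libraries inside the wild type range (log2 change 0.20, 95% interval -0.17 to 0.58). Insig2 was the more abundant of the pair in all 6 libraries. The ratio of Insig2 to Insig1 was 5.80, 9.69 and 5.77 for wild type and 3.0, 2.53 and 3.42 for knockout, without overlap. Since Insig2 was itself called, this is not a separate result. Srebf2, the gene of SREBP2, was low, at 4.15, 3.50 and 3.33 FPKM in wild type and 3.23, 3.38 and 4.38 FPKM in knockout, with a 95% interval of the log2 change from -0.31 to 0.30. Scap, the escort, stood at 18.8, 18.2 and 14.7 FPKM in wild type and 17.1, 17.2 and 20.2 FPKM in knockout, with a 95% interval from -0.23 to 0.39. RNA levels of these genes do not measure the cleavage of SREBP2.

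**Figure D4:**
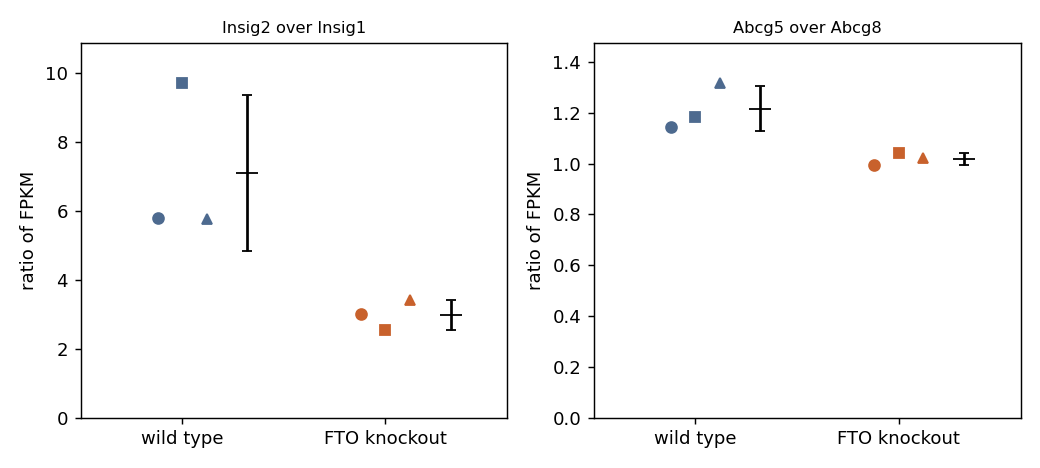
Ratio of FPKM within each library for Insig2 over Insig1 and for Abcg5 over Abcg8, a point per library with the mean ± SD. Both ratios are lower in the 3 knockout libraries than in the 3 wild type libraries.

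Genes of uptake had overlapping groups. Scarb1, which encodes the HDL receptor SR-BI, was the most abundant, at 41.0, 45.0 and 44.8 FPKM in wild type and 41.7, 44.9 and 61.3 FPKM in knockout, where only replicate 3 stood above wild type. Lrp1, a receptor for remnant lipoproteins, stood at 26.6, 26.3 and 17.5 FPKM in wild type and 23.2, 25.0 and 28.3 FPKM in knockout, with wild type replicate 3 the lowest of the 6. Mylip, a ubiquitin ligase that marks lipoprotein receptors for degradation, was the lowest, at 1.31, 1.32 and 2.91 FPKM in wild type and 0.934, 1.58 and 1.79 FPKM in knockout. Here again wild type replicate 3 stood apart, and the 95% interval of the log2 change ran from -0.74 to 0.35.

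Among the genes of transport inside the cell, Stard4, a soluble carrier of sterols and a target of SREBP2, stood at 11.6, 10.1 and 11.7 FPKM in wild type and at 13.7, 16.9 and 15.6 FPKM in knockout. All 3 knockout libraries were above wild type (log2 change 0.43, SE 0.12, adjusted p 0.110 in limma), which missed the threshold. Npc1 and Npc2 pass cholesterol out of lysosomes. Npc1 stood at 22.6, 22.0 and 16.1 FPKM in wild type and 19.9, 23.0 and 20.2 FPKM in knockout. For Npc2 the values were 12.6, 14.7 and 18.4 FPKM in wild type and 16.1, 16.7 and 17.5 FPKM in knockout. In both, wild type replicate 3 was at an extreme of the 6 libraries, the lowest for Npc1 and the highest for Npc2.

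Esterification genes differed in level by far more than they differed between genotypes. Lcat, a secreted enzyme that esterifies cholesterol on lipoproteins in plasma, had the highest mean level of all 34 genes over the 6 libraries, at 280, 267 and 275 FPKM in wild type and 292, 283 and 310 FPKM in knockout. Soat2, the acyltransferase of hepatocytes, stood at 12.5, 13.4 and 12.3 FPKM in wild type and 14.3, 15.2 and 14.2 FPKM in knockout. For both genes the knockout libraries were all above wild type, but the log2 changes were 0.11 and 0.18 with adjusted p-values of 0.677 and 0.378 in limma. Soat1, the more widespread acyltransferase, had only 0.178, 0.191 and 0.317 FPKM in wild type and 0.277, 0.273 and 0.364 FPKM in knockout. It was too low for the test, and its 2 lowest libraries were wild type.

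In efflux, the pair Abcg5 and Abcg8 had lower means in knockout, and neither was called by limma. Abcg5 (chromosome 17, 84658234 to 84683011, mm10) stood at 37.9, 33.8 and 40.5 FPKM in wild type and at 21.9, 30.2 and 22.7 FPKM in knockout, with no overlap (log2 change -0.58, SE 0.15, adjusted p 0.0955 in limma). Abcg8 stood at 33.1, 28.6 and 30.8 FPKM in wild type and at 22.1, 29.0 and 22.2 FPKM in knockout, where replicate 2 lay inside the wild type range (log2 change -0.33, SE 0.14, adjusted p 0.256). Knockout replicates 1 and 3 were low for both genes, and knockout replicate 2 was the highest of its group for both. The ratio of Abcg5 to Abcg8, whose proteins form a dimer, was 1.15, 1.19 and 1.32 in wild type and 0.994, 1.04 and 1.02 in knockout. Their exons share 82 bases on opposite strands in the annotation, and the sources used here do not say whether the counting used strand.

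The other efflux genes overlapped between the groups. Abca1, which loads cholesterol onto apolipoprotein A-I, stood at 9.43, 8.28 and 5.94 FPKM in wild type and at 7.16, 7.81 and 9.38 FPKM in knockout (95% interval of the log2 change -0.35 to 0.45). Abcg1, which exports sterols from macrophages and other cells, was below the mean required for the test, at 0.591, 0.644 and 0.814 FPKM in wild type and 0.704, 0.691 and 0.791 FPKM in knockout. The knockout values of Abcg1 lay within the wild type range.

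**Figure D5:**
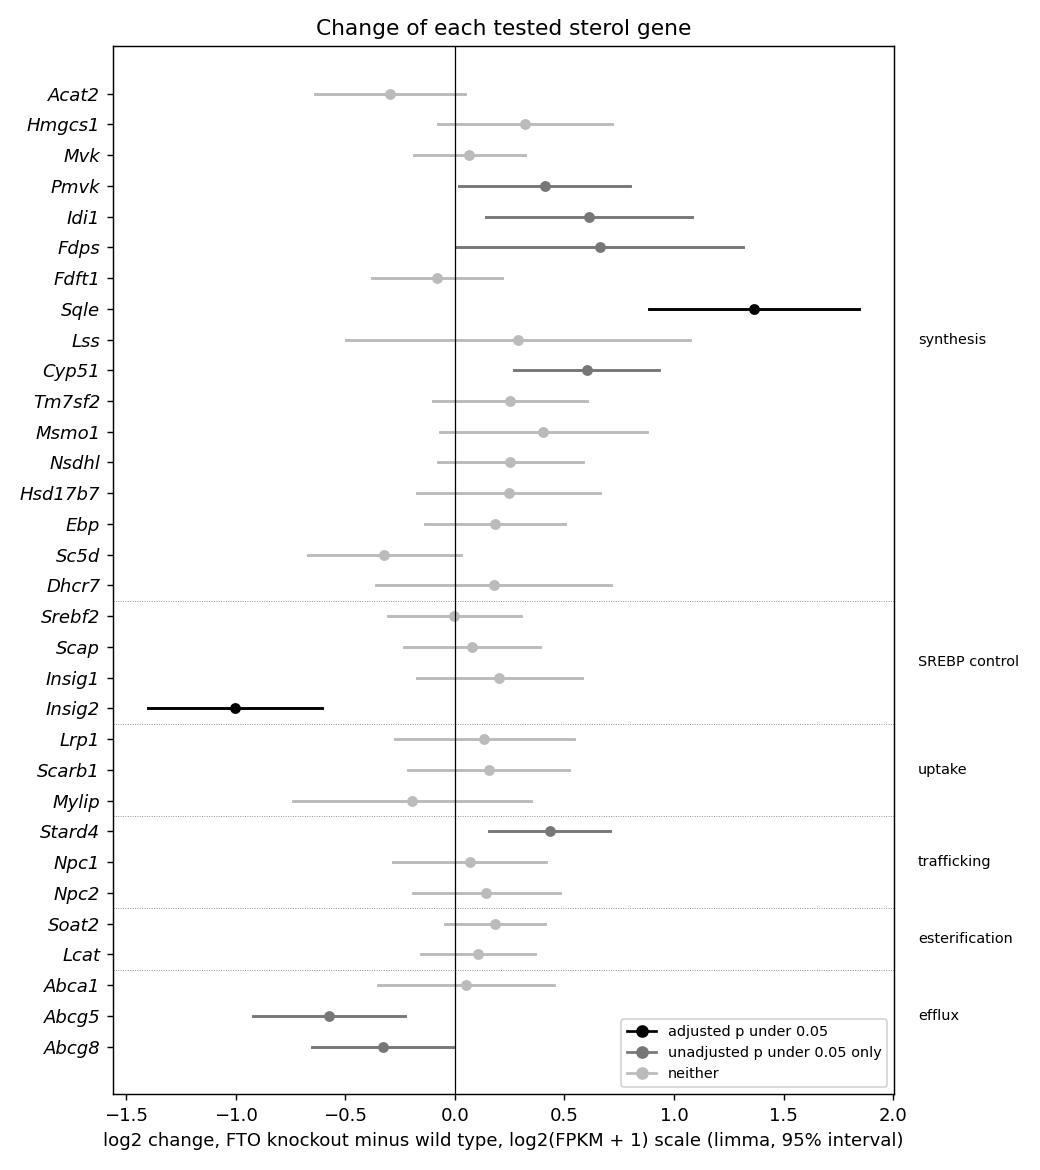
Log2 change of the 32 tested genes, knockout minus wild type on the log2(FPKM + 1) scale, with its 95% interval from limma, grouped by role. Black marks the genes past the adjusted threshold (Sqle and Insig2), and most intervals include 0.

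A further list held 31 genes of sterol sensing, lipid transfer, lysosomal release and precursor supply. Of these, 28 were tested, 0 were called higher, 2 lower and 26 were not called, and 12 changes were positive and 16 negative, with a median of -0.06. Of all tested genes 1.11% were called higher and 1.65% lower. An unadjusted p under 0.05 was reached by 1 gene with a higher mean and 6 with a lower mean, beside 8.65% and 10.0% of all tested genes. Lipa, the lysosomal lipase that frees cholesterol from esters, fell 1.49-fold, from 68.2, 66.1 and 71.1 FPKM in wild type to 44.2, 45.6 and 48.3 FPKM in knockout (log2 change -0.56, SE 0.11, adjusted p 0.0380 in limma). Gramd1c, a sterol transfer protein of the Aster family, fell 1.56-fold, from 11, 11.9 and 10.8 FPKM to 6.38, 7.87 and 7.41 FPKM (log2 change -0.58, SE 0.11, adjusted p 0.0399). The groups of both were tight and far apart, yet either call was lost without any library other than wild type replicate 3, with adjusted p-values from 0.0628 to 0.183. For Gramd1c the adjusted p was 0.0665 with no filter on low values.

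Pltp, the phospholipid transfer protein, stood at 45.2, 31.7 and 55.4 FPKM in wild type and at 12.2, 14.8 and 25.0 FPKM in knockout (log2 change -1.32, SE 0.28, adjusted p 0.0562 in limma). It missed the threshold here and passed it with median ratio size factors (0.0419), quantile normalization (0.0411) and robust empirical Bayes (0.0476). The electron donor gene Cyb5r3, the squalene-binding protein gene Sec14l2 and the acyltransferase gene Lpcat3 had log2 changes of -0.47, -0.42 and -0.35, with no overlap between groups and adjusted p-values of 0.151, 0.132 and 0.151. Rnf145, a ubiquitin ligase that acts on SCAP, was the gene with the higher mean, at 3.62 ± 0.489 FPKM for wild type against 4.88 ± 0.427 FPKM for knockout (SD, n = 3 each). Vldlr, a lipoprotein receptor gene, was below the mean required for the test, at 0.994, 1.10 and 1.34 FPKM in wild type and at 0.202, 0.272 and 0.0840 FPKM in knockout. The main setting did not test Vldlr, and it was chosen after its values were seen. With no filter on low values it was fitted too, and 2 genes of this list were called lower. Its own result in that setting is not given here.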

How the data were processed

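RNA of hepatic tissue was measured in 6 libraries, grouped by the genotype label. The authors deposited FPKM per Ensembl gene. The submitters' processing notes name TopHat2 2.1.0, HTSeq, Cufflinks 2.2.1 and build mm10, without a role for each. Symbols and coordinates came from GENCODE M21 (24807 identifiers matched). The FPKM were not counts, so limma 3.58.1 in R 4.3.3 (lmFit, eBayes with intensity trend, two-sided) was run on log2(FPKM + 1), keeping the 10405 genes that averaged 1 FPKM or more over all libraries, and checked on simulated data. Folds are ratios of mean FPKM. The log2(FPKM + 1) scale understates the change of low genes. Depth was inferred from 964 genes of a single transcript, as the median over values read as a single fragment. Only the 49 to 60 values per library that gave a depth within a preset range were kept. Exons of 11 of 34 genes overlap another gene, and their values are uncertain to that extent. The members and lists were chosen with earlier results of these data known. Genes are named as follows: every member, with library values for those with an unadjusted p under 0.05, the highest and lowest of each role and the SREBP control genes; other sterol genes at an unadjusted p under 0.05. Library values of further members, and Vldlr, were added after their values were seen. The list of other sterol genes held 4 more, which are not reported here. Marker lists of sinusoidal endothelial, stellate, bile duct, lymphoid and neutrophil, and adipocyte cells were also read. Of their genes 0 were called, and their summed FPKM in wild type and knockout ran from 72.1 to 164 and 94.5 to 133, 79.8 to 116 and 74.4 to 108, 17.9 to 34.3 and 24.7 to 28.7, 2.60 to 8.01 and 3.71 to 7.93, and 0.0248 to 0.273 and 0 to 0.0133, in that order. Alternatives tried were a pseudocount of 0.1, keeping low genes in, robust empirical Bayes, scaling by median ratio size factors or by quantile normalization, and leaving out each library.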

Additional observations from a re-analysis of the deposited data

How the results depend on the processing

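No paired analysis was possible because the labels give the groups no shared replicate numbers. With quantile normalization 180 genes of the table were called higher, and with no filter on low values 93 were called lower, 0 members were called higher and 0 lower. Leaving out each library gave 43 to 312 genes of the table called higher and 49 to 240 lower, 0 to 2 members called higher and 0 to 1 lower, and 0 to 2 other sterol genes called lower. The highest counts over the table, and the 2 members called higher (Sqle and Fdps), came without wild type replicate 3. The log2 change of 10 genes, called in no setting, changed sign under an alternative, 15 values in all. Srebf2 was 0.0048 with median ratio size factors and 0.013 with quantile normalization. Leaving out each library gave -0.110 to 0.0712 for Srebf2 (0.0644, 0.0382 and 0.0712 without knockout replicates 1 and 2 and wild type replicate 1). Without wild type replicate 3 the values turned to 0.0166 for Fdft1 (range -0.141 to 0.0166), -0.0285 for Scap (to 0.143), -0.0547 for Lrp1 (to 0.231), 0.0551 for Mylip (from -0.323), -0.0831 for Npc1 (to 0.152) and -0.118 for Abca1 (to 0.176). Without wild type replicate 1 they turned to -0.0124 for Mvk (to 0.119) and -0.0663 for Lss (to 0.573), and without knockout replicate 3 to -0.0101 for Scarb1 (to 0.262) and -0.0474 for Abca1. The cause of these shifts was not tested. Soat1 and Abcg1 were too low to test except with no filter on low values, where neither was called. With 3 libraries a group, an exact permutation test of a single value could not reach p < 0.05.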
